A study of Mus musculus with 31 samples.

Results

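Epas1, Hif1a and 7 other genes of the hypoxia pathway were examined in alveolar macrophages (AM) of mice exposed to cigarette smoke (CS). The 9 genes, Epas1, Hif1a, Egln1, Egln3, Vegfa, Slc2a1, Bnip3, Pdk1 and Ldha, were chosen by their symbols, with earlier results of these same comparisons known. Of these, 8 had a row in the table of 13521 genes, and Egln3 was not analysed here. All 8 passed the filter on low counts in every comparison. Because the genes were chosen in this way, their differences between groups are given as descriptions, as log2 fold changes with their standard errors and, within a time point, without p-values. For these genes adjusted p-values are printed only for differences between responses. For genes outside the 9 they are printed within a time point too. No adjusted p-value here allows for the choice of the genes. To be called, a gene needed a 1.5-fold difference and, after adjustment over all genes tested, a p under 0.05, and whether a gene was called is given as part of the description.

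AM were recovered by bronchoalveolar lavage from male mice on the C57BL6 background that were 8 to 12 weeks old when exposure began. The 7-day part held 4 CS-exposed RAGE null, 4 control RAGE null, 4 CS-exposed wild-type (WT) and 3 control WT mice, and the 4-month part held 4 mice in each of these groups. RAGE null mice carry a homozygous null mutation of Ager, which encodes RAGE, a cell surface receptor for glycated proteins and other ligands. CS-exposed mice breathed smoke on 7 days or for 4 months on 5 days per week, and control mice breathed room air. Each of the 31 libraries came from 1 mouse. The 7-day and 4-month libraries are described as separate sets, so time of exposure, age of the mice and library set cannot be told apart in any comparison of levels between time points.

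The libraries held 11666879 to 19975073 counts at 7 days and 12769797 to 34492288 counts at 4 months, where control WT replicate 1 held the highest total and the other 15 at most 20025262. The total of control WT replicate 1 lies above the range of reads that the study's methods give for the 4-month libraries. AM markers were high in all libraries: the 14 of 15 AM markers in the table summed to 18700 to 33300 CPM (counts scaled to 1 common library total by trimmed mean of M-values, TMM, factors) over the 8 groups, with Chi3l3 at 10600 to 21800 CPM. Ager itself was counted in both genotypes, at 3.83 to 5.44 CPM in RAGE null and 4.17 to 7.37 CPM in WT mice at 7 days, and at 2.73 to 4.20 CPM in RAGE null and 0.671 to 2.53 CPM in WT mice at 4 months. The counts are per gene and do not show which exons the reads came from, so Ager does not check the genotype. H2-T10, a histocompatibility gene looked at after its values were seen, was at 19.4 to 23.1 CPM in 15 of the 16 RAGE null libraries and at 2.90 to 6.34 CPM in the WT libraries. The remaining library, control RAGE null replicate 2 at 4 months, had 9.78 CPM and stood apart from its group in several of the values below. The listed genes whose values moved most without it are given without it too. Over all genes, leaving it out changed the number called at 4 months to 1481 from 909 for RAGE null over WT control mice, to 1294 from 949 for CS over control in RAGE null mice, and to 74 from 5 for the difference of the CS responses.

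Cells sense oxygen through hypoxia-inducible factors (HIFs), pairs of an oxygen-regulated alpha subunit and a stable partner, ARNT. Hif1a and Epas1 encode the alpha subunits HIF-1α and HIF-2α. When oxygen is present, prolyl hydroxylases, of which Egln1 and Egln3 encode 2 (PHD2 and PHD3), mark the alpha subunits for degradation, so HIF activity is set largely at the level of protein. In low oxygen the alpha subunits accumulate, enter the nucleus and switch on genes for glucose uptake and glycolysis, for blood vessel growth and for the removal of mitochondria. AM live at high oxygen, and their alpha subunits also respond to inflammatory signals. The RNA levels below do not measure the HIF proteins.

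HIFs bind a short core motif, ACGTG or GCGTG, and the stretches of promoter that carry it are shown for 3 target genes to show where such letters lie in them. Promoters were taken from RefSeq (GRCm38.p6), which held 8 of the 9 genes listed, with 11 promoters. Epas1 was not among them. The 250 bases before each transcription start were searched for both motifs on both strands, and overlapping matches were counted as 1 site. The same search found at least 1 site in 38.6% of all 32851 promoters, so a match is common. In the 3 stretches, printed 5′ to 3′ on the strand of the gene, capitals mark the matches.
Slc2a1: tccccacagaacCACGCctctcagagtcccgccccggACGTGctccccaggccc
Pdk1: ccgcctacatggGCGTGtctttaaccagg
Ldha: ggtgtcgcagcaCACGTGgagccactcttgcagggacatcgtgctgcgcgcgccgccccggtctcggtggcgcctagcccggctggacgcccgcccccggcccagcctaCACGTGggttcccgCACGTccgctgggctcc
The Slc2a1 stretch lies at chr4:119108672-119108725 and holds sites at positions -61 and -36 from the start. The Pdk1 stretch lies at chr2:71873134-71873162 and holds 1 site at position -78. The Ldha stretch lies at chr7:46845647-46845786 and holds 3 sites, at positions -145, -48 and -34, the first 2 of which read CACGTG. All 3 genes lie on the plus strand. Bnip3 had 4 sites, Egln1 and Hif1a 2 each and Egln3 1. The main Vegfa promoter, whose start matches the 5′ end of the gene on chromosome 17, had 0 sites, and a second promoter within the gene had 2. The second promoter of Pdk1 had 0 sites, and that of Ldha had 1, at position -59.

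The level of the 8 genes in AM spanned a wide range, as the deposited FPKM, which allow for transcript length, show. Ldha, which makes the lactate dehydrogenase subunit that turns pyruvate into lactate, had the highest level, with group means of 103 to 168 FPKM. Hif1a had group means of 18.1 to 36.9 FPKM, Egln1 of 17.0 to 22.1 FPKM and Slc2a1, the glucose transporter GLUT1, of 10.7 to 17.9 FPKM. Pdk1, a pyruvate dehydrogenase kinase, had 5.0 to 9.48 FPKM, and Bnip3, a mitophagy receptor, 2.91 to 3.67 FPKM. Vegfa, the vascular endothelial growth factor, was lowest, with group means of 0.0715 to 2.16 FPKM. Epas1 had group means of 1.44 to 31.7 FPKM, so that in CS-exposed WT mice at 4 months it was near Hif1a (36.9 FPKM), while in control RAGE null mice at 4 months it was far below it (28.5 FPKM).

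Epas1 was lower in RAGE null than in WT AM in all 4 matched comparisons, and higher with CS than without it in both genotypes at 4 months. It is on chromosome 17 (mm10, ENSMUSG00000024140, 86753907 to 86833410, plus strand), 52.2 Mb from Ager. At 4 months the CS-exposed RAGE null mice had 18.3, 15.8, 29.0 and 22.5 CPM of Epas1, and control RAGE null mice had 9.57, 9.44, 4.43 and 7.88 CPM. In WT mice it was at 185, 220, 181 and 133 CPM with CS, and at 48.5, 84.8, 53.8 and 54.5 CPM in controls. The 4 groups did not overlap: every CS-exposed library was above every control library of its genotype, and every RAGE null library was below every WT library.

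**Figure D1:**
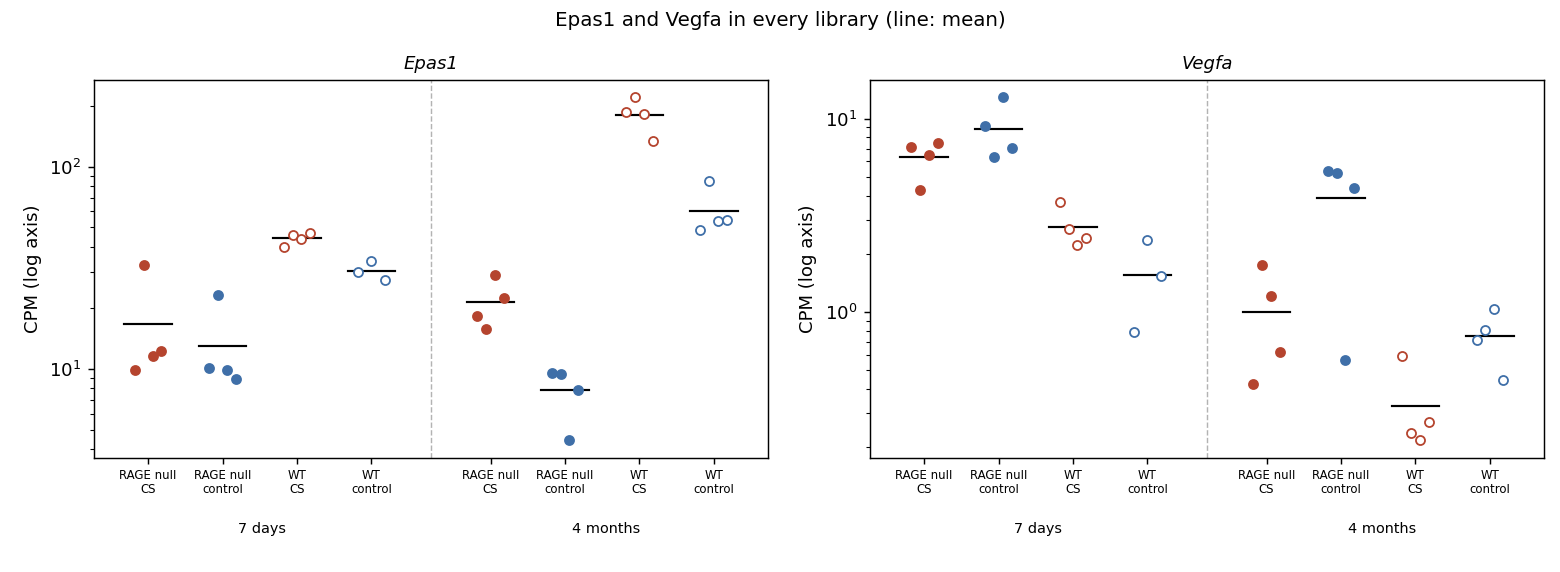
Epas1 (left) and Vegfa (right) in each of the 31 libraries, in CPM on a log axis, by group; each point is 1 mouse, red for CS and blue for control, filled for RAGE null and open for WT, and lines are group means. At 4 months all 8 RAGE null libraries lie at 4.43 to 29.0 CPM of Epas1, below the 48.5 to 220 CPM of WT, and control RAGE null replicate 2 lies at 0.566 CPM of Vegfa, apart from the 4.4 to 5.36 CPM of its group.

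In the fit of all 4-month libraries Epas1 was 2.77-fold higher in CS-exposed than in control RAGE null mice (log2 fold change 1.47 ± 0.26, SE, n = 4 each) and 2.95-fold higher in CS-exposed than in control WT mice (1.56 ± 0.22, n = 4 each). The response to CS of RAGE null minus that of WT was -0.09 ± 0.35 on the log2 scale (edgeR's quasi-likelihood test, adjusted p = 0.945), which leaves room for a difference of either sign. The library that stood apart had the lowest Epas1 of its group, and without it the CS response in RAGE null mice was 1.25. Between genotypes Epas1 was 8.41-fold lower in RAGE null than in WT mice under CS (log2 fold change -3.07 ± 0.24) and 7.90-fold lower in control mice (-2.98 ± 0.26). Each of these 4 values kept its sign when any library was left out.

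At 7 days Epas1 was called lower in RAGE null mice too, and 1 library in each RAGE null group was high. CS-exposed RAGE null mice had 9.92, 32.6, 11.6 and 12.3 CPM, and control RAGE null mice had 10.1, 23.1, 9.88 and 8.94 CPM. CS-exposed WT mice had 40.0, 45.8, 43.8 and 47.0 CPM, and the 3 control WT mice had 30.0, 34.2 and 27.6 CPM. Replicate 1 was the high library in both RAGE null groups, but neither reached the WT libraries of the same exposure. The log2 fold change of RAGE null over WT was -1.43 ± 0.32 under CS and -1.25 ± 0.34 in control mice. Without replicate 1 of the RAGE null mice these values were -1.97 under CS and -1.68 in control mice. The call under CS was lost without CS-exposed RAGE null replicate 0 (-1.23), 2 (-1.30) or 3 (-1.32). The call in control mice was lost without control WT replicate 0 (-1.27) or 1 (-1.16), or without control RAGE null replicate 2 (-1.14) or 3 (-1.11).

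With CS for 7 days Epas1 differed by 0.34 ± 0.33 on the log2 scale in RAGE null mice, whose groups overlapped, and by 0.52 ± 0.33 in WT mice, whose groups did not. The value in RAGE null mice turned to -0.20 without CS-exposed replicate 1 and was 0.76 without control replicate 1. The CS response at 4 months minus that at 7 days was 1.14 ± 0.46 in RAGE null mice (edgeR, adjusted p = 0.185) and 1.04 ± 0.41 in WT mice (adjusted p = 0.182), so neither difference passed the threshold. Without CS-exposed RAGE null replicate 1 of the 7-day part the difference in RAGE null mice was 1.69, past the rule for a call once a library seen to stand apart was removed. Across all 8 groups the order of mean Epas1 CPM began with CS-exposed WT at 4 months (180 ± 35.9 CPM, SD, n = 4), control WT at 4 months (60.4 ± 16.5), CS-exposed WT at 7 days (44.1 ± 3.08) and control WT at 7 days (30.6 ± 3.32, n = 3). It ended with the 4 RAGE null groups, at 21.4 ± 5.75 CPM with CS at 4 months, 16.6 ± 10.7 with CS at 7 days, 13 ± 6.76 in controls at 7 days and 7.83 ± 2.39 in controls at 4 months. Among the 4 WT groups no neighbours in this order overlapped, and from control WT at 7 days downwards each group overlapped the next.

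Endothelium and type 2 alveolar cells are known for strong Epas1 expression, so markers of both were set beside it. Pecam1, an endothelial marker, was at 0 to 0.982 CPM over the 31 libraries. The 5 of 14 endothelial markers in the table were summed, with none of the 5 at 0 throughout a group. At 7 days the sums were 116 to 135 CPM in CS-exposed and 125 to 135 in control RAGE null mice. In WT mice they were 119 to 138 with CS and 133 to 138 in controls. At 4 months they were 111 to 144 in CS-exposed and 88.1 to 116 in control RAGE null mice. The WT mice then had 127 to 165 with CS and 114 to 155 in controls. These endothelial sums ranged higher in WT mice at 4 months, as Epas1 did, but the genotypes overlapped at both times. The summed CPM of the 13 type 2 markers was 415 to 565 in CS-exposed RAGE null, 484 to 684 in control RAGE null, 357 to 401 in CS-exposed WT and 380 to 386 in control WT mice at 7 days. At 4 months it was 377 to 392 in CS-exposed RAGE null, 405 to 602 in control RAGE null, 340 to 378 in CS-exposed WT and 348 to 424 in control WT mice. At 7 days the type 2 sums of all RAGE null libraries lay above those of all WT libraries, the reverse of Epas1, and at 4 months the sums of the genotypes overlapped. Gene by gene, 8 of 11 type 2 markers were called higher in RAGE null than in WT control mice at 4 months and 0 lower, against 6.97% of all genes. Under CS at 4 months 0 of 11 were called, against 4.94% of all genes. The median log2 fold changes were 3.37 in control mice and 1.48 under CS. In the mixed RNA of a library, fewer cells of a type and less RNA per cell cannot be told apart, and the part of these cells in the Epas1 difference was not tested.

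Markers of other cells differed with CS at 4 months too, mostly downwards where Epas1 was higher. In RAGE null mice 2 of 4 monocyte, 1 of 4 T cell, 3 of 5 neutrophil, 3 of 3 red cell, 2 of 9 airway and 0 of 5 endothelial markers were called lower, and 1 neutrophil and 1 endothelial marker higher. Of all genes, 7.27% were called there in either direction. DESeq2 called 0 of the red cell markers. In WT mice 2 monocyte, 3 T cell, 1 neutrophil, 0 red cell, 1 airway and 2 endothelial markers were called lower and 1 neutrophil marker higher. The share of all genes called in WT mice was 5.67%. Ccr2, the chemokine receptor of inflammatory monocytes, had a log2 fold change of -1.33 ± 0.26 in RAGE null mice (edgeR, adjusted p = 0.00261) and -1.86 ± 0.26 in WT mice (adjusted p = 0.000227). The summed CPM of the monocyte markers was 26.8 to 41.7 with CS and 38.2 to 60.3 in controls in RAGE null mice, and 37.5 to 47.3 with CS and 46.5 to 59.2 in controls in WT mice. That of the T cell markers was 2.23 to 6.91 with CS and 2 to 9.57 in controls in RAGE null mice, and 1.77 to 3.49 with CS and 5.7 to 12.6 in controls in WT mice. Pecam1 was lower with CS in WT mice at 4 months (-2.06 ± 0.63, edgeR, adjusted p = 0.0377). Its levels there were very low, at 0.0535 to 0.237 CPM with CS and 0.237 to 0.742 CPM in controls. The summed CPM of the endothelial markers ranged higher with CS, with overlap. It was 127 to 165 with CS and 114 to 155 in controls in WT mice, and 111 to 144 and 88.1 to 116 in RAGE null mice. Marco, a scavenger receptor of AM, was lower in RAGE null than in WT control mice at 7 days (-1.15 ± 0.20, adjusted p = 0.00268). It was also lower under CS at 7 days (-1.23 ± 0.19, adjusted p = 0.0015) and 4 months (-1.55 ± 0.40, adjusted p = 0.021), as Epas1 was. Of 14 AM markers tested, Marco alone was called in these comparisons, and 0 were called in control mice at 4 months. The median log2 fold change of the AM markers was 0.14, 0.14 and 0.03 in these comparisons, and 0.0007 in control mice at 4 months. Of all genes, 4.78%, 2.2% and 4.94% were called in them, and 6.97% in control mice at 4 months. The part of these cells in the Epas1 values was not tested.

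Over the 31 libraries, after the mean of each time point was subtracted, the 4 genes outside the list whose log2 CPM went most closely with Epas1 were Gcm2 (Pearson r = 0.90), Ephx1 (0.90), Ahnak2 (0.89) and Igf1 (0.88). The 4 closest to Hif1a were D6Wsu116e, Pcx, Por and Nrp2, each at r = 0.85. Those closest to Vegfa were Sftpb (0.92), Lmo7 (0.91), Emp2 (0.89) and Sftpa1 (0.87), all of which mark alveolar epithelium. Among the listed genes themselves the closest pair was Hif1a and Slc2a1 (r = 0.76), and Epas1 and Vegfa went against each other (r = -0.70). All libraries share these groups, so the values of r describe the groups as much as the genes.

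Hif1a was never called under the rule, and all its differences were under 1.5-fold. With no fold threshold Hif1a was called higher with CS in WT mice at both time points. It was then also called lower in RAGE null than in WT mice under CS at 4 months. With CS its WT groups did not overlap at either time point. The gene is on chromosome 12 (73901375 to 73947530, plus strand) and overlaps Gm15283 on the other strand, and since the counting is not stated to use strand, reads of the pair may be shared. At 7 days CS-exposed RAGE null mice had 115, 136, 134 and 133 CPM of Hif1a, against 98.5, 104, 85.3 and 124 CPM in control RAGE null mice. CS-exposed WT mice had 138, 130, 126 and 141 CPM at 7 days, against 100, 91.4 and 109 CPM in control WT mice. The WT groups did not overlap and the RAGE null groups did. The log2 fold change was 0.34 ± 0.09 in RAGE null and 0.42 ± 0.10 in WT mice.

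At 4 months CS-exposed RAGE null mice had 174, 179, 188 and 166 CPM of Hif1a, and control RAGE null mice had 169, 188, 165 and 164 CPM. The CS-exposed WT mice were at 230, 228, 245 and 224 CPM, and control WT mice had 173, 171, 221 and 185 CPM. The CS-exposed WT libraries lay above every other library of the study. The CS response was 0.04 ± 0.07 in RAGE null and 0.30 ± 0.07 in WT mice, with a difference of -0.26 ± 0.10 between genotypes (edgeR, adjusted p = 0.342). Hif1a was 1.31-fold lower in RAGE null than in WT mice under CS (log2 fold change -0.39 ± 0.07) and -0.13 ± 0.07 in control mice, where the groups overlapped. The spans of Hif1a were 164 to 245 CPM at 4 months and 85.3 to 141 CPM at 7 days, a gap that the separate library sets leave without a test.

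Egln1, the hydroxylase PHD2, was the steadiest of the regulators. It ranged from 59.6 to 81.4 CPM over all 31 libraries, and its 12 log2 fold changes lay between -0.15 and 0.17. At 4 months CS-exposed RAGE null mice had 67.2, 64.0, 64.2 and 67.8 CPM, all below the 72.6, 75.2, 70.1 and 72.9 CPM of control RAGE null mice. The control RAGE null mice were in turn all above the control WT mice, at 65.7, 69.4, 59.6 and 63.2 CPM. The differences were -0.15 ± 0.05 for CS over control in RAGE null mice and 0.17 ± 0.05 for RAGE null over WT in control mice, which is 1.11-fold and 1.13-fold. The groups did not overlap in either pair, and both were well under the 1.5-fold needed for a call.

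Vegfa, on chromosome 17 as well (46016993 to 46032377, minus strand, 11.4 Mb from Ager), was called higher in RAGE null than in WT mice in 3 of the 4 matched comparisons. At 7 days CS-exposed RAGE null mice had 7.14, 4.25, 6.45 and 7.44 CPM of Vegfa, and control RAGE null mice had 9.18, 6.33, 12.9 and 7.06 CPM. The values in CS-exposed WT mice were 3.68, 2.67, 2.22 and 2.41 CPM, and control WT mice had 0.789, 2.35 and 1.54 CPM. No RAGE null library was as low as any WT library. Vegfa was 2.32-fold higher in RAGE null than in WT mice under CS (log2 fold change 1.22 ± 0.29) and 5.59-fold higher in control mice (2.48 ± 0.33). The call under CS was lost when any of 6 libraries was left out, with values of 1.2, 1.12 and 1.16 without CS-exposed WT replicates 1, 2 and 3, and 1.15, 1.21 and 1.13 without CS-exposed RAGE null replicates 0, 2 and 3.

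At 4 months CS-exposed RAGE null mice had 0.421, 1.74, 1.21 and 0.616 CPM of Vegfa, and control RAGE null mice had 5.36, 5.21, 0.566 and 4.4 CPM, the low value being that of the library that stood apart. CS-exposed WT mice had 0.589, 0.237, 0.216 and 0.268 CPM, and control WT mice had 0.712, 0.801, 1.04 and 0.442 CPM. These are low levels, with as few as 3 counts in a library. The log2 fold change of CS over control was -1.89 ± 0.53 in RAGE null mice, and -1.15 ± 0.72 in WT mice. The call in RAGE null mice was lost without control replicate 0 (-1.69), control replicate 3 (-1.81) or CS-exposed replicate 3 (-1.72), and held, at -2.27, without the library that stood apart. Between genotypes it was 1.58 ± 0.71 under CS and 2.32 ± 0.54 in control mice, and 2.70 in control mice without the library that stood apart. Without that library the value under CS, 1.57, was past the rule for a call. The CS response at 7 days was -0.48 ± 0.26 in RAGE null and 0.78 ± 0.35 in WT mice, with a difference of -1.27 ± 0.44 (edgeR, adjusted p = 0.207). The RAGE null value was -0.25 without control replicate 2, and the WT value ran between 0.47 without control replicate 0 and 1.23 without control replicate 1. The CS response at 4 months minus that at 7 days was -1.39 ± 0.59 in RAGE null mice (adjusted p = 0.207, and -1.78, past the rule for a call, without the library that stood apart) and -1.94 ± 0.82 in WT mice (adjusted p = 0.202).

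The mean log2 CPM of the 26 type 1 and type 2 alveolar cell markers in the table was 3.24 to 3.97 in CS-exposed RAGE null, 3.69 to 4.35 in control RAGE null, 2.43 to 2.81 in CS-exposed WT and 2.10 to 2.69 in control WT mice at 7 days. At 4 months it was 1.70 to 2.18 in CS-exposed RAGE null, 1.59 to 3.72 in control RAGE null, 0.94 to 1.25 in CS-exposed WT and 1.27 to 1.60 in control WT mice. The lowest RAGE null values at 7 days, 3.24 with CS and 3.69 in controls, were those of replicate 1, where Epas1 was highest. Over the 8 RAGE null libraries at 7 days Epas1 went against this marker mean (Pearson r = -0.87). Over the 7 WT libraries r was 0.42. Of the 13 type 1 markers tested at 7 days, 9 were called higher in RAGE null than in WT control mice and 0 lower, and of the 13 type 2 markers again 9 and 0, against 4.78% of all genes in either direction. Under CS at 7 days 9 type 1 and 5 type 2 markers were called higher and 0 lower, against 2.2% of all genes. At 4 months 8 of 12 type 1 and 8 of 11 type 2 markers were called higher in RAGE null than in WT control mice and 0 lower, against 6.97% of all genes, with median log2 fold changes of 1.92 and 3.37. Under CS at 4 months 4 of 12 type 1 markers were called higher and 0 of 11 type 2 markers (edgeR; 7 of the 11 had an unadjusted p under 0.05, and DESeq2 called 4), against 4.94% of all genes, with type 2 at a median of 1.48. With CS at 4 months in RAGE null mice 7 of 12 type 1 and 7 of 11 type 2 markers were called lower and 0 higher, against 7.27% of all genes. With CS at 4 months in WT mice 1 type 1 marker was called higher and 2 lower, and 1 type 2 marker lower, against 5.67%. When the library that stood apart was left out, an alternative chosen after seeing the data, 8 of 13 type 1 and 9 of 12 type 2 markers were called lower with CS in RAGE null mice, and 8 and 9 higher in RAGE null than in WT control mice. Under CS 8 of 13 and 4 of 12 were then called higher in RAGE null than in WT mice. Sftpb, a surfactant protein gene of type 2 cells, was at 14.4 to 32 CPM in the 3 control RAGE null libraries with high Vegfa at 4 months, and at 0.823 CPM in the library that stood apart. Of these markers S100g alone was at 0 in all libraries of a group, that of CS-exposed WT mice at 4 months. The part of epithelial RNA in the Vegfa and Epas1 differences was not tested.

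**Figure D2:**
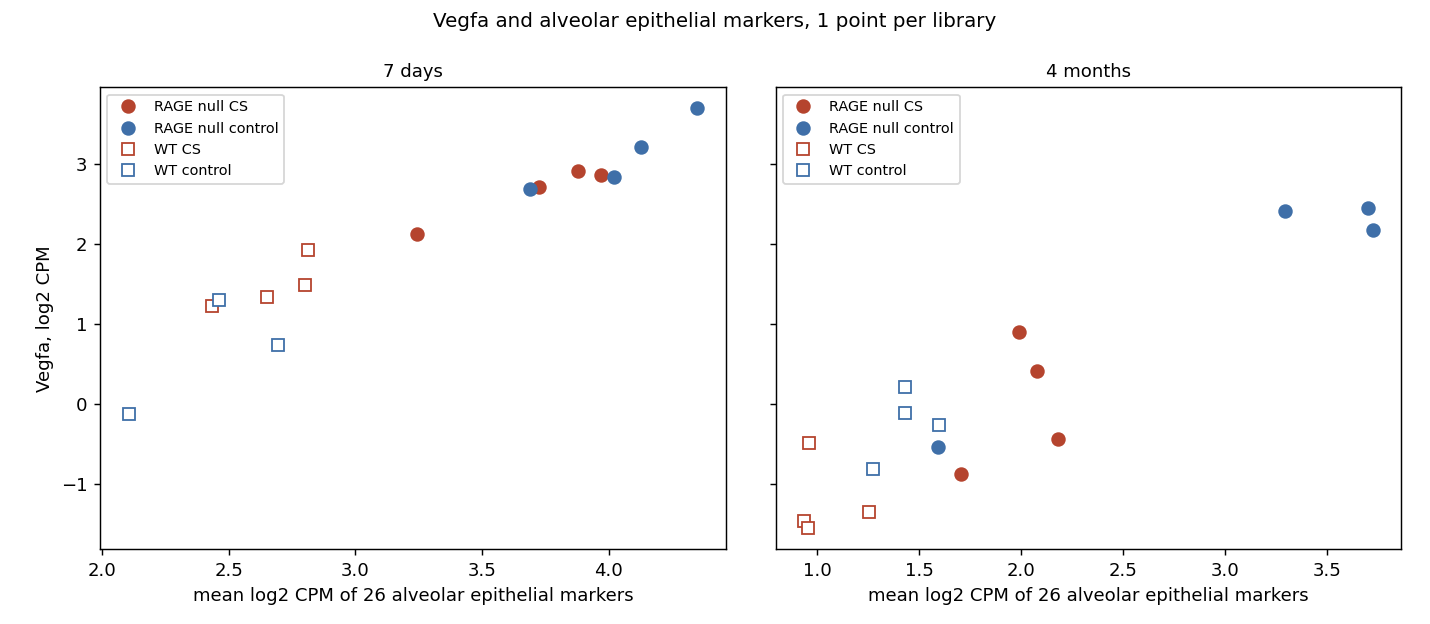
Vegfa log2 CPM against the mean log2 CPM of 26 alveolar epithelial markers at 7 days (left) and 4 months (right), 1 point per library, circles for RAGE null and squares for WT, red for CS and blue for control. At 7 days the RAGE null libraries lie above the WT libraries in both measures, and at 4 months 3 control RAGE null libraries lie apart at the upper right and the fourth, at 0.566 CPM of Vegfa, lies among the other groups.

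Slc2a1 was higher with CS in WT mice at 7 days. The gene is on chromosome 4 (119108711 to 119137330, plus strand) and overlaps Gm12868 on the other strand, with which it may share reads. CS-exposed RAGE null mice had 27.4, 44.8, 38.5 and 39.6 CPM of Slc2a1 at 7 days, against 27.8, 30.9, 31.8 and 40.0 CPM in control RAGE null mice. CS-exposed WT mice had 45.7, 41.1, 40.8 and 50.5 CPM, against 26.8, 32.1 and 26.8 CPM in control WT mice, with no overlap. Slc2a1 was thus 1.55-fold higher with CS in WT mice (log2 fold change 0.63 ± 0.15), and the value was 0.20 ± 0.14 in RAGE null mice. The difference between the responses was -0.43 ± 0.20 (edgeR, adjusted p = 0.310). The WT value was just past 1.5-fold, and the call was lost without control WT replicate 0 (0.59), control WT replicate 1 (0.73) or CS-exposed WT replicate 3 (0.57).

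At 4 months CS-exposed RAGE null mice had 32.8, 42.2, 38.4 and 38.7 CPM of Slc2a1, against 43.2, 65.9, 29.7 and 40.4 CPM in control RAGE null mice. In CS-exposed WT mice there were 47.6, 57.1, 57.4 and 55.4 CPM, against 34.9, 36.3, 50.6 and 40.4 CPM in control WT mice. The groups overlapped in both genotypes, and control RAGE null replicate 1 had the highest Slc2a1 of all 31 libraries. The log2 fold change with CS was -0.24 ± 0.18 in RAGE null and 0.42 ± 0.18 in WT mice, with a difference of -0.66 ± 0.25 (edgeR, adjusted p = 0.325). Under CS at 4 months no RAGE null library reached a WT library, at a log2 fold change of -0.51 ± 0.18.

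Pdk1 was higher with CS in RAGE null mice at 4 months, where 1 CS-exposed mouse did not share the difference. CS-exposed RAGE null mice had 41.8, 95.7, 77.0 and 96.3 CPM of Pdk1, against 33.3, 42.1, 45.3 and 38.2 CPM in control RAGE null mice. Pdk1 in CS-exposed WT mice was at 73.1, 68.1, 64.5 and 57.8 CPM, against 63.1, 62.7, 58.8 and 52.9 CPM in control WT mice. The CS-exposed RAGE null replicate 0 lay within the range of the controls, and the other 3 lay above every other library of the study. Pdk1 was 1.95-fold higher with CS in RAGE null mice (log2 fold change 0.96 ± 0.19, and 1.17 without replicate 0), and differed by 0.15 ± 0.19 in WT mice. The difference between the responses was 0.81 ± 0.26 (edgeR, adjusted p = 0.250), and without CS-exposed RAGE null replicate 0 it was 1.02 and past the rule for a call. In control mice Pdk1 was 1.49-fold lower in RAGE null than in WT mice, without overlap (log2 fold change -0.58 ± 0.19). This value was past the rule for a call without control WT replicate 3 (-0.63) or the library that stood apart (-0.65). Under CS the value was 0.24 ± 0.18, with overlap.

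Ldha and Bnip3 differed little. Ldha ranged from 316 to 519 CPM over all libraries, and its 12 log2 fold changes lay between -0.15 and 0.20. Its levels were 316 to 385 CPM at 4 months and 394 to 519 CPM at 7 days, without overlap, a gap between library sets that has no test. Bnip3 ranged from 5.05 to 12.2 CPM, with log2 fold changes between -0.10 and 0.34. At 4 months it was at 7.30, 7.74, 7.76 and 9.72 CPM in CS-exposed RAGE null mice, against 5.05, 12.2, 5.35 and 5.19 CPM in control RAGE null mice. The log2 fold change with CS in these mice was 0.24 ± 0.23, and 0.63, past the rule for a call, without control RAGE null replicate 1, which was also the library with the highest Slc2a1.

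**Figure D3:**
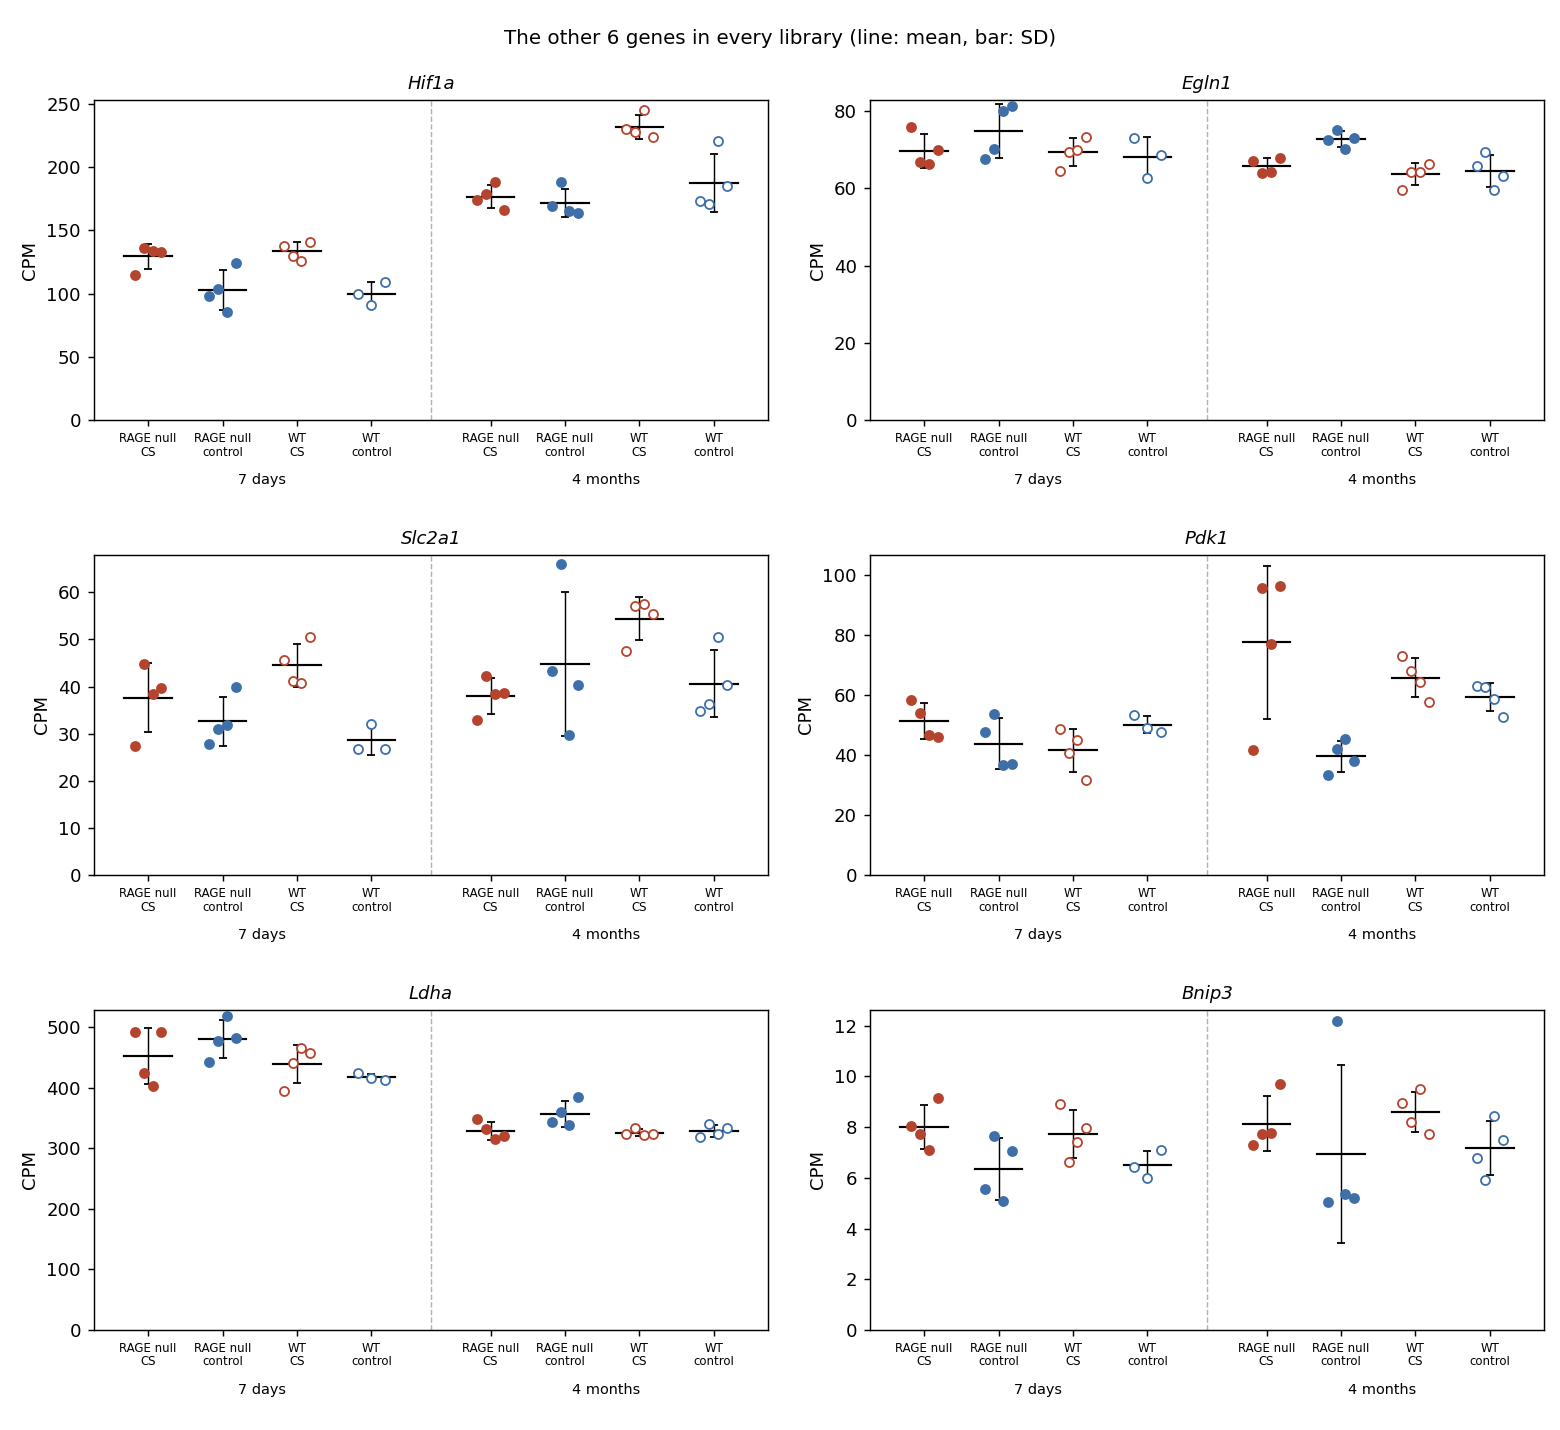
Hif1a, Egln1, Slc2a1, Pdk1, Ldha and Bnip3 in each of the 31 libraries, in CPM on linear axes from 0; each point is 1 mouse, red for CS and blue for control, filled for RAGE null and open for WT, with group means (lines) and SD (bars). CS-exposed WT libraries at 4 months have the highest Hif1a (224 to 245 CPM), and 3 of 4 CS-exposed RAGE null libraries at 4 months have the highest Pdk1 (77.0 to 96.3 CPM).

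The share of all genes called stands beside each count below, from which nothing is read because the genes were chosen with these comparisons known. With CS at 7 days, 0 of 8 genes were called in RAGE null mice, where edgeR called 0.439% of all genes, 2 of the 8 had an unadjusted p under 0.05 and DESeq2 called 0. In WT mice 1 was called (Slc2a1), against 2.26% of all genes. With CS at 4 months 3 were called in RAGE null mice (Epas1 and Pdk1 higher, Vegfa lower), against 7.27% of all genes. In WT mice 1 was called (Epas1), against 5.67%. The shares at 7 days moved with single libraries: the 58 genes behind 0.439% were 15 without CS-exposed RAGE null replicate 2 and 194 without CS-exposed RAGE null replicate 0, and the 299 behind 2.26% were 46 without control WT replicate 1 and 480 without control WT replicate 2.

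Between genotypes at 7 days 2 of 8 were called under CS (Epas1 lower and Vegfa higher in RAGE null), against 2.2% of all genes, and the same 2 in control mice, against 4.78%. At 4 months 1 was called under CS (Epas1), against 4.94%, and 2 in control mice (Epas1 and Vegfa), against 6.97%. The difference of the CS responses between genotypes gave 0 calls among the 8 at 7 days, where edgeR called 0% of all 13220 genes (2096 had an unadjusted p under 0.05, DESeq2 called 114, and edgeR called 119 without control RAGE null replicate 0). Of the 8, 3 had an unadjusted p under 0.05 and DESeq2 called 0. At 4 months it again gave 0, against 0.0383% of all genes, with 3 of the 8 at an unadjusted p under 0.05 and 0 by DESeq2. The difference between 4 months and 7 days gave 0 in RAGE null mice, against 1.86% of all genes, with 4 at an unadjusted p under 0.05 and 0 by DESeq2. It gave 0 in WT mice too, against 0.783% of all genes, with 2 at an unadjusted p under 0.05 and 0 by DESeq2. The median log2 fold change of the 8 genes ran from -0.14 to 0.33 over the 12 comparisons, and that of all genes tested was within 0.02 of 0 in each. Of all genes, the number called between genotypes in control mice at 7 days was 632, and 241 without control WT replicate 1, and under CS it was 291, and 178 without CS-exposed WT replicate 1. For the difference between times it was 105 in WT mice (0 without CS-exposed WT replicate 0 of the 4-month part, 300 without control WT replicate 2 of the 7-day part) and 250 in RAGE null mice (92 without CS-exposed replicate 3 and 469 without CS-exposed replicate 0, both of the 4-month part).

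**Figure D4:**
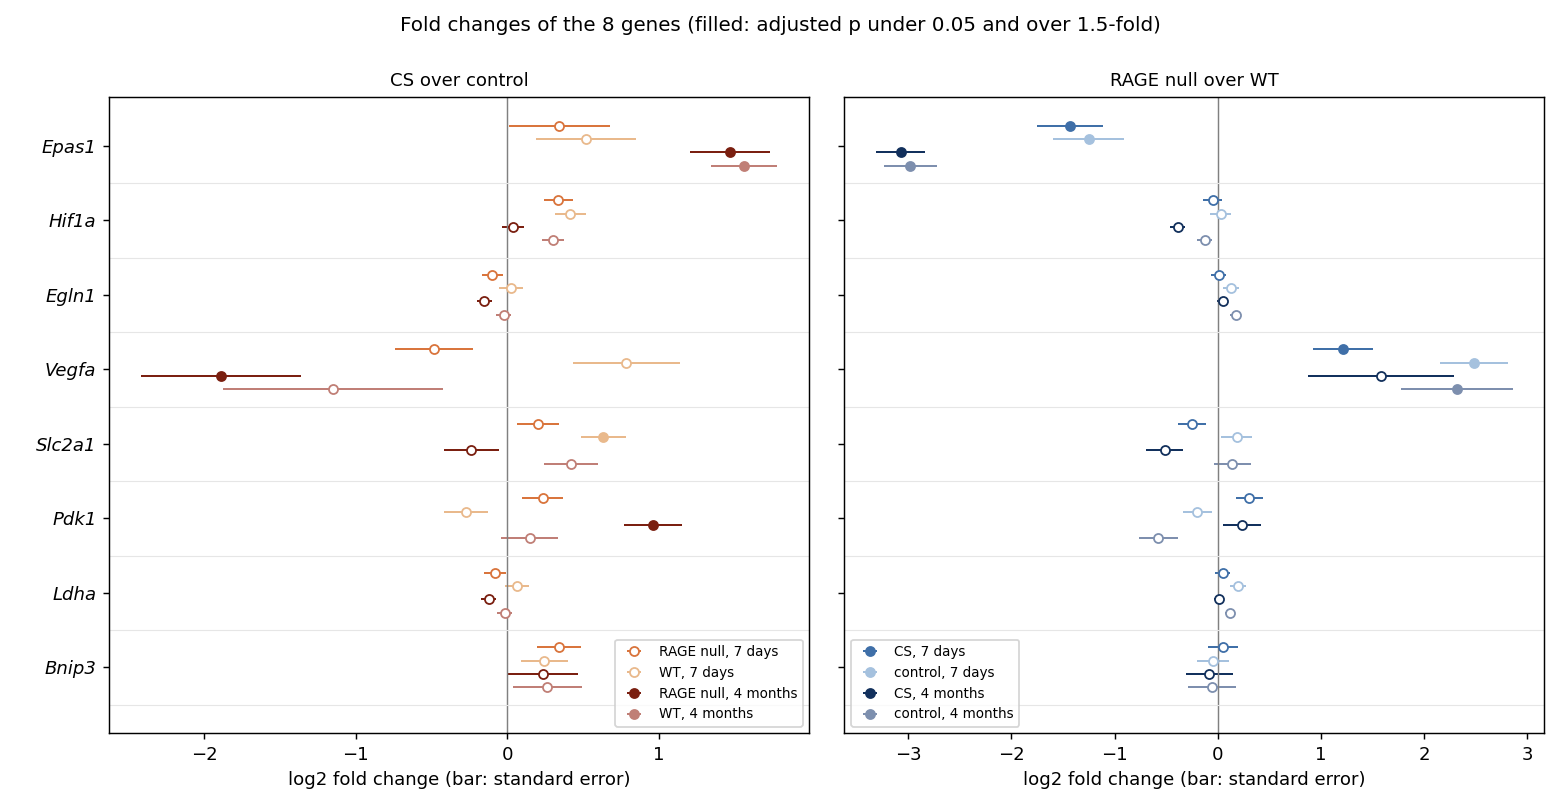
Log2 fold changes of the 8 genes with standard errors (bars) for CS over control (left) and RAGE null over WT (right), by time point; filled points passed the rule for a call. Epas1 lies between -3.07 and -1.25 in the 4 genotype comparisons and at 1.47 and 1.56 with CS at 4 months, while Egln1 and Ldha stay between -0.15 and 0.20.

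Other genes of the pathway, from lists drawn up with earlier results known, were counted in the same way, beside the shares of all genes given above. Of 14 HIF regulators tested, 0 were called with CS at 7 days in RAGE null mice and 0 in WT mice (edgeR; 4 and 1 had an unadjusted p under 0.05, and DESeq2 called 0 in both), against 0.439% and 2.26% of all genes. At 4 months Siah2, a ubiquitin ligase that acts on the prolyl hydroxylases, was lower with CS in both genotypes. Siah2 was at 16.4, 16.9, 13.1 and 12.5 CPM in CS-exposed and 29.8, 23.2, 28.4 and 34.4 CPM in control RAGE null mice (log2 fold change -0.98 ± 0.12, adjusted p = 8.43e-05), and at -0.78 ± 0.12 in WT mice (adjusted p = 0.000421). Arnt2, a relative of the HIF partner ARNT, was 3.13 ± 0.54 higher on the log2 scale with CS in WT mice at 4 months (adjusted p = 0.00125), at 19.8, 26.9, 13.8 and 3.96 CPM in CS-exposed and 0.791, 1.25, 3.05 and 2.34 CPM in control mice. Under CS its log2 fold change of RAGE null over WT was -3.00 ± 0.54 (adjusted p = 0.00256). The CS-exposed RAGE null mice had 0.562, 1.58, 3.09 and 2.81 CPM of it, and control RAGE null mice 0.228 to 1.18 CPM. With CS in RAGE null mice at 4 months edgeR called 1 of the 14 HIF regulators, Siah2, and DESeq2 called 2, against 7.27% of all genes by edgeR. For the difference between the genotypes' responses at 4 months 0 of the 14 were called, against 0.0383% of all genes.

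Of the genes of glucose transport and glycolysis, 26 were tested at 7 days and 25 at 4 months. With CS at 7 days 0 were called in RAGE null mice (edgeR; 7 at an unadjusted p under 0.05, DESeq2 0) and 1 in WT mice, Pdk4, a second pyruvate dehydrogenase kinase, whose log2 fold change was -1.07 ± 0.24 (adjusted p = 0.0185). Leaving out either replicate 0 or replicate 1 of the control WT mice ended this call. Mean Pdk4 in RAGE null mice was 28 CPM with CS and 43.4 CPM in controls at 7 days. Between genotypes at 7 days Pdk4 was called higher in RAGE null mice, by 1.25 ± 0.22 in controls (adjusted p = 0.00305) and 1.69 ± 0.22 under CS (adjusted p = 0.000382). It was the 1 called of 26 in each, against 4.78% and 2.2% of all genes, and was not called between genotypes at 4 months. With CS at 4 months 3 genes of the list were called higher and 2 lower in RAGE null mice, and 2 higher and 1 lower in WT mice, against 7.27% and 5.67% of all genes. Pfkl, a phosphofructokinase subunit, was higher with CS in both genotypes, by 0.92 ± 0.20 in RAGE null mice (adjusted p = 0.00521) and 0.76 ± 0.20 in WT mice (adjusted p = 0.0185). Pfkfb3, whose product drives phosphofructokinase, had a log2 fold change of -0.75 ± 0.15 in RAGE null mice (adjusted p = 0.00336). Slc16a1, a lactate and pyruvate carrier, was 0.60 ± 0.15 higher with CS in RAGE null mice (adjusted p = 0.0102), as Pdk1 was, and lower in RAGE null than in WT control mice (-0.79 ± 0.15, adjusted p = 0.00321). The median of the list was -0.02 in RAGE null and -0.07 in WT mice.

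Of 31 other genes known to be induced by hypoxia, 1 was called higher with CS at 7 days in WT mice (P4ha1, a collagen prolyl hydroxylase subunit, 0.79 ± 0.13, edgeR, adjusted p = 0.00437). At 4 months 3 were called higher and 1 lower with CS in RAGE null mice, and 1 higher and 1 lower in WT mice, against the same shares of all genes. Plod2, a collagen lysyl hydroxylase, was higher in both, by 1.52 ± 0.30 in RAGE null mice (adjusted p = 0.00309) and 1.13 ± 0.27 in WT mice (adjusted p = 0.0109), at levels of at most 3.37 CPM. Hmox1, heme oxygenase 1, which is also a target of Nrf2, had a log2 fold change of -1.40 ± 0.40 with CS in RAGE null mice (adjusted p = 0.0221). Under CS it was lower in RAGE null than in WT mice, at 309, 359, 382 and 362 CPM against 1010, 1640, 2030 and 1190 CPM (-2.06 ± 0.41, adjusted p = 0.00477). Tfrc, the transferrin receptor, was lower in RAGE null than in WT mice in 3 of the 4 comparisons by call, among them control mice at 4 months (-1.09 ± 0.29, adjusted p = 0.0185).

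Of the VEGF family and its receptors, 5 were tested at 7 days and 6 at 4 months besides Vegfa. Nrp2, a receptor for VEGF and semaphorins, was called higher with CS in WT mice at 7 days (0.61 ± 0.15, adjusted p = 0.0267), a call that was lost without control WT replicate 0 or 1, without CS-exposed WT replicate 0, 1 or 2, and with the replicate block, and at 4 months (0.80 ± 0.14, adjusted p = 0.000986). At 4 months CS-exposed WT mice had 464, 487, 496 and 432 CPM of it, against 257, 219, 309 and 287 CPM in control WT mice. Under CS at 4 months Nrp2 was lower in RAGE null than in WT mice (-0.65 ± 0.14, adjusted p = 0.00678), a call lost without CS-exposed RAGE null replicate 0. Vegfb was higher with CS in WT mice at 4 months (0.61 ± 0.09, adjusted p = 0.0005). In RAGE null mice at 4 months Vegfb was at 23.1 to 28.3 CPM with CS and 14.9 to 19.3 CPM in controls, without overlap and without a call. Its CS response at 4 months minus that at 7 days was called in RAGE null mice (0.61 ± 0.15, edgeR, adjusted p = 0.03). It was the 1 called of 6, against 1.86% of all genes, and the call was lost in 7 of 31 fits that left 1 library out. With CS none of the list was called in RAGE null mice at either time (edgeR and DESeq2, 0 each; 1 of 5 and 3 of 6 had an unadjusted p under 0.05), and for Nrp2 and Vegfb the difference between the genotypes' responses was not called.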

How the data were processed

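RNA-seq libraries of AM from 31 mice were analysed. Per the file headers and the study's methods, the authors aligned single-end reads of oligo dT selected RNA to mm10 with Novoalign and deposited a count of reads per gene and library. The deposited FPKM were scaled by the authors for gene length and depth, and were used here only to compare levels between genes. Columns of log2 ratios and false discovery rates in the tables hold the authors' own comparisons and were not used. Whether counting used strand is not given in the sources used here. The submitters' processing notes also name DESeq2.

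Counts were tested with edgeR 4.0.16 in R 4.3.3 (limma 3.58.1), by the quasi-likelihood test, 2-sided, on genes kept by filterByExpr (minimum count 10, minimum total 15) with TMM scaling. Each time point was fitted with its 4 groups, and both together for differences between time points, with no covariate. The Benjamini-Hochberg adjustment ran across the whole table. Calls needed a value below 0.05 after adjustment together with a 1.5-fold difference. The fits were tested on simulated data. DESeq2 1.42.0 was run as an alternative. Log2 CPM used a prior count of 2. Tables and plots were made with Python 3.11.15, numpy 2.4.6, pandas 2.3.3 and matplotlib 3.10.9.

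The genes and lists were chosen with earlier results of these data known. All listed hypoxia genes are named, with Ager, in each further hypoxia list at most the 4 called genes with the smallest p in a comparison, and the 4 genes most like Epas1, Hif1a and Vegfa among genes whose log2 CPM averaged 2 or more. Results of 1 listed gene are not reported here. H2-T10, Pecam1, Ccr2, Marco and S100g were named after their values were seen. Over 45 pairs of libraries of 1 group the chi-square per degree of freedom was 4.32 to 38.0, so none was a repeat deposit. Nothing states that the mice of a group came from separate cages or litters, and p-values measure the spread between these mice.

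Alternatives were other size factors, other filters, no fold threshold, DESeq2, only the groups compared, a replicate block, and leaving out each library in turn.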

Additional observations from a re-analysis of the deposited data

Results flagged for a closer look

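In 7 of the 56 groups of 4 libraries examined, 1 library lay far from the other 3 by Dixon's criterion, which chance meets in about 1 in 20 groups. Epas1 was at 32.6 CPM in replicate 1 of CS-exposed RAGE null mice at 7 days, where the others were at 9.92 to 12.3 CPM. It was at 23.1 CPM in replicate 1 of control RAGE null mice at 7 days (others 8.94 to 10.1 CPM), and at 84.8 CPM in replicate 1 of control WT mice at 4 months (others 48.5 to 54.5 CPM). Hif1a was lowest, at 115 CPM, in replicate 0 of CS-exposed RAGE null mice at 7 days (others 133 to 136 CPM). Vegfa was at 0.589 CPM in replicate 0 of CS-exposed WT mice at 4 months (others 0.216 to 0.268 CPM). Bnip3 was at 12.2 CPM in replicate 1 of control RAGE null mice at 4 months (others 5.05 to 5.35 CPM). Ldha was at 334 CPM in replicate 1 of CS-exposed WT mice at 4 months (others 322 to 324 CPM).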

How the results depend on the processing

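The 4 Epas1 calls at 4 months held in every alternative run. With no fold threshold, 2 of the 8 genes were called with CS in WT mice at 7 days and 2 at 4 months, 4 between genotypes in control mice and 2 under CS at 4 months. With at least 20 counts in every library, 1 was called between genotypes in control mice at each time and 1 under CS at 7 days, since Vegfa was then not tested. With the replicate block 0 were called with CS in WT mice at 7 days, where Slc2a1 was at 0.57. The numbers did not pair the libraries: the mean correlation of same-numbered libraries was -0.0444 to 0.0828 over 12 pairs of groups, and in 0 of them was every pair over 0.1. When 1 library was left out, the genes called numbered 0 to 1 with CS in WT mice at 7 days, 1 to 1 in WT and 2 to 4 in RAGE null mice at 4 months. Between genotypes they numbered 1 to 2 in control mice and 0 to 2 under CS at 7 days, and 2 to 3 in control mice and 1 to 2 under CS at 4 months. They numbered 0 to 1 for the difference of responses at 4 months and 0 to 1 for that between times in RAGE null mice. Epas1 changed sign, uncalled, with CS in RAGE null mice at 7 days (-0.20 to 0.76) and in the difference of responses at 7 days (-0.72 to 0.24) and 4 months (-0.31 to 0.0407). In the fit of only the 2 groups compared, which was not run for differences of responses, Vegfa with CS in RAGE null mice at 4 months was -1.89 and not called. The cause was not tested where none is named. Of the further lists, calls in glycolysis numbered 3 to 6 with CS in RAGE null and 1 to 3 in WT mice at 4 months, and calls among the other hypoxia genes numbered 0 to 6 between genotypes in control mice at 4 months, 6 being without control RAGE null replicate 2 and 0 without replicate 3. Vegfa rested on as few as 3 counts in a library.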
